A study of Homo sapiens with 17 samples.

Results

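The histone genes were every array probe whose annotated symbol begins with HIST1H, HIST2H, HIST3H or HIST4H, or with a current name H1-, H2AC, H2BC, H3C or H4C followed by a number. This rule took 82 of 47323 probes. Of the 82, 81 carried 1 symbol and covered 72 genes of 20046 on the array, and 1 was annotated to a pair of H3 genes and was assigned to neither. A filter on dim probes left 50 histone probes, 49 of them for 44 genes. The 32 probes below the filter, which include the only probes of 28 genes, had mean raw signals of 40.8 to 55.9, at the level of the array background, and were not tested.

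Histones H2A, H2B, H3 and H4 form the core around which DNA is wrapped, and the linker histone H1 binds where the DNA enters and leaves. Most of their genes lie in clusters, are transcribed in S phase when chromatin is copied, and give mRNAs that end in a stem-loop and lack a poly(A) tail. Some clustered genes can also give polyadenylated mRNAs, and replacement histones such as H1-10, a linker histone encoded outside the clusters, do so throughout. RNA was labelled here with a MessageAmp kit, whose first strand is primed on poly(A), so signals depend on polyadenylation as well as on abundance. Which 3' end each probe read was not tested.

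Transcripts of 6 acute myeloid leukemia (AML) cell lines were profiled on bead arrays after 48 h at 1 or 5 µM D9 or without treatment. D9 is an analog of 3-deazaneplanocin A (DZNep), a compound that lowers histone methylation. The series' design text places TF-1, MOLM-14 and MV-4-11 among lines sensitive to D9, and counts KG-1a, Mono-Mac-1 and THP-1 as resistant. There were 17 arrays, 1 per line and condition. MV-4-11 had no 5 µM array, so its effect is that of 1 µM alone, while the other 5 lines enter with the mean of both doses. TF-1 was grown with IL-3 and the other lines without it. Each line stands for 1 cell culture per condition, and the line was the replicate.

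The median raw signal of an array was 53.9 at the lowest and 67.4 at the highest. Untreated TF-1 cells carried the fetal globin gene HBG1 at a raw signal of 25648, against at most 56.5 in the other 5 lines. Of the myeloid genes, untreated KG-1a was near background for LYZ and SPI1 (at most 72.8), low for MPO (86.0) and above background for CEBPA (570.1), and KG-1a carried the T cell gene CD3D at up to 7454. All 4 probes for the pan-leukocyte gene PTPRC were near background in every line (39.2 to 72.9), as were EPCAM, KRT19 and CDH1, which mark epithelial cells.

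D9 raised a small set of histone transcripts over the 6 lines, led by the H2A genes H2AC18 and H2AC19 and the H2B gene H2BC12, and lowered H2BC9. With limma and a Benjamini-Hochberg adjusted p under 0.10, 7 of 50 histone probes (6 genes) rose and 1 fell. Of all 28394 probes tested, 2.78% were called higher and 2.81% lower. Changes are given as log2 D9 minus untreated, so that a value of 1 is a 2-fold rise. Among the 44 genes, each read on its brightest probe, 32 lay above 0 with a median of 0.13, against 49.1% of all probes above 0 with a median of 0.00. In all 6 lines 7 genes were higher, 18 were higher in 5 or more lines, and 2 in at most 1 line. The matching shares of all probes were not counted, so these counts are descriptions only. Leaving out TF-1 or Mono-Mac-1 took the count of called histone probes to 0, leaving out THP-1 to 2 and leaving out MV-4-11 to 4. Calls over all 28394 probes fell as well, from 1588 to 512 without TF-1 and 108 without Mono-Mac-1. They were 869 without THP-1 and 584 without MV-4-11. When arrays were not paired by line, 0 histone probes and 0 of all probes were called.

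**Figure D1:**
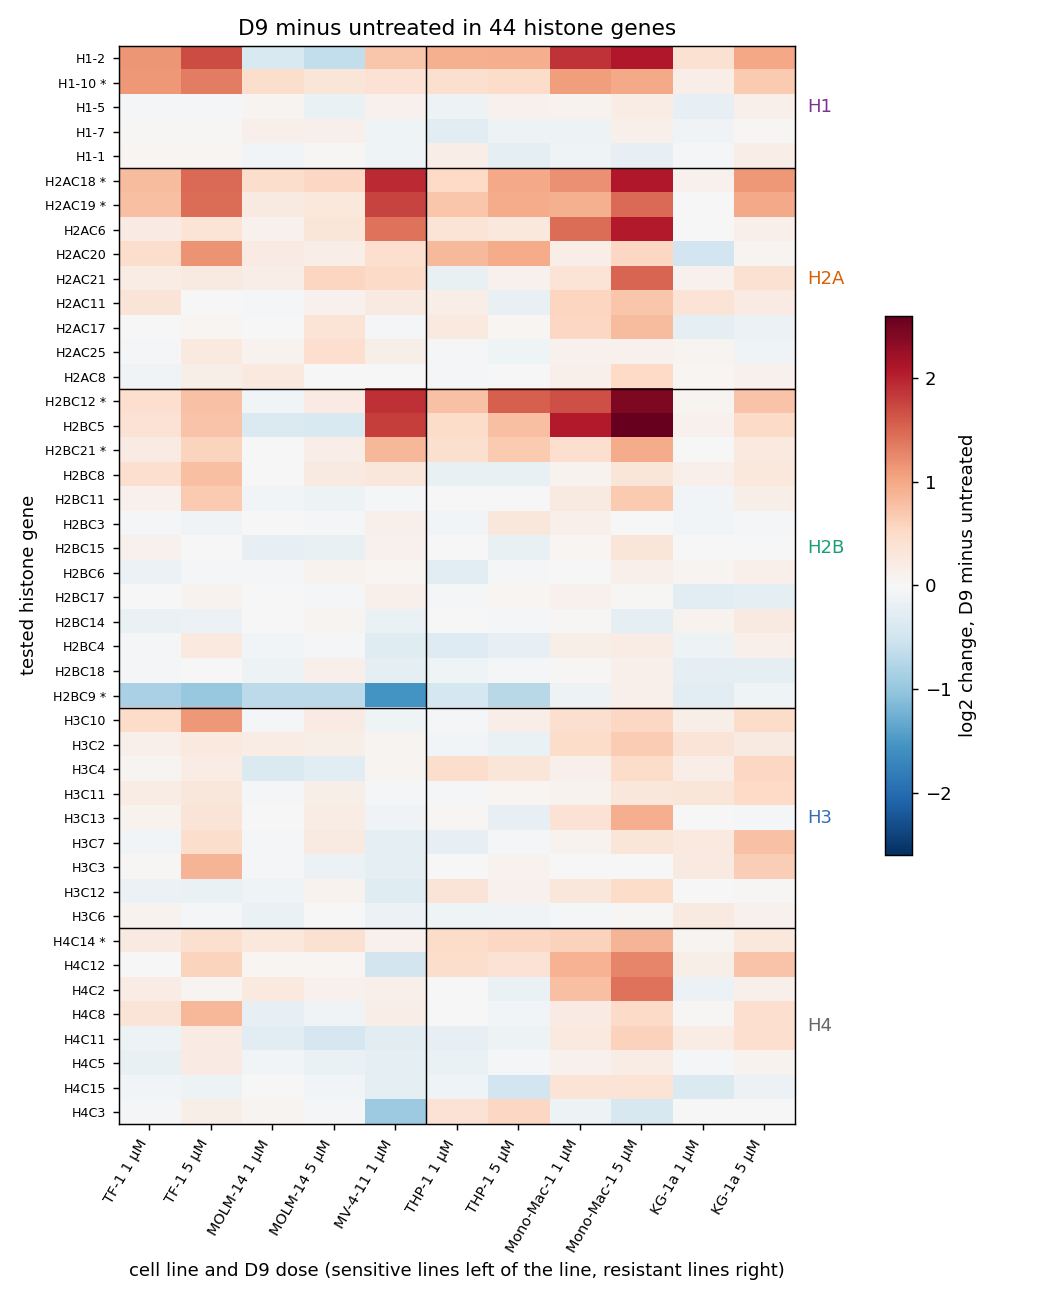
Log2 change, D9 minus untreated, of the 44 tested histone genes (rows, grouped by family; an asterisk marks genes called over 6 lines) for each line and dose (columns, sensitive lines left of the vertical line). The darkest red cells belong to H2A, H2B and H1 genes in Mono-Mac-1 and MV-4-11, and the darkest blue cell is H2BC9 in MV-4-11.

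The called genes were among those with a higher mean signal over all 17 arrays. That mean includes the treated arrays, so a rise under D9 itself lifts it. Some called genes lay near the filter level of 6.16 in single untreated arrays, such as H4C14 in TF-1 and H2BC21 in Mono-Mac-1. Of the 44, 16 genes had a mean raw signal of 100 or more, 13 of which lay above 0 with a median of 0.43, and all 7 called genes were among them. The 28 dimmer genes had a median of 0.06, with 19 above 0 and 0 called. When only the brighter 40% of the array was tested, 10 of 32 histone probes rose and 1 fell, against 5.28% of those 18929 probes called higher.

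H2AC18 and H2AC19 are copies of the same H2A gene in the HIST2 cluster on chromosome 1 and had the largest changes among H2A genes. At 0, 1 and 5 µM the log2 signal of H2AC18 was 7.88, 8.70 and 9.36 in TF-1, 9.95, 10.40 and 10.49 in MOLM-14, 8.21, 8.73 and 9.20 in THP-1, 7.27, 8.45 and 9.35 in Mono-Mac-1, 7.99, 8.09 and 9.11 in KG-1a, and at 0 and 1 µM it was 9.07 and 11.01 in MV-4-11. All 11 treated arrays were above the untreated array of their own line, although untreated MOLM-14 lay above most treated arrays of other lines. H2AC18 rose by 1.10 ± 0.20 (SE, adjusted p = 0.0437), most in MV-4-11 (1.93) and Mono-Mac-1 (1.64) and least in MOLM-14 (0.50). A second H2AC18 probe rose by 0.79 ± 0.17 (SE, adjusted p = 0.0676).

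For H2AC19 the signal at the same doses was 7.66, 8.44 and 9.10 in TF-1, 10.03, 10.25 and 10.30 in MOLM-14, 8.06, 8.79 and 9.02 in THP-1, 7.24, 8.17 and 8.71 in Mono-Mac-1, 7.86, 7.87 and 8.85 in KG-1a, and at 0 and 1 µM it was 8.81 and 10.56 in MV-4-11. H2AC19 rose by 0.94 ± 0.18 (SE, adjusted p = 0.05), with MV-4-11 again highest (1.75) and MOLM-14 lowest (0.25). The promoters of both copies in RefSeq were identical over 299 aligned bases, and near-identical transcripts can bind each other's probes, so H2AC18 and H2AC19 are not independent readings.

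The other H2A genes lay above 0 without passing the test. H2AC20, the next H2A gene of the HIST2 cluster, read 0.41 ± 0.14 (SE, adjusted p = 0.17), H2AC21 read 0.37 ± 0.12 (SE, adjusted p = 0.148) and H2AC6, in the HIST1 cluster on chromosome 6, read 0.67 ± 0.24 (SE, adjusted p = 0.184). H2AC6 was at 1.76 in Mono-Mac-1 and at 1.41 in MV-4-11, and its range over the remaining 4 lines was 0.07 to 0.31. These 3 genes were added after their values were seen. All 9 tested H2A genes were above 0, with a median of 0.37.

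H2BC12, an H2B gene of the HIST1 cluster, had the largest change in its family. The log2 signal of its brighter probe at 0, 1 and 5 µM was 10.99, 11.42 and 11.76 in TF-1, 12.31, 12.23 and 12.53 in MOLM-14, 9.60, 10.37 and 11.15 in THP-1, 8.74, 10.40 and 11.17 in Mono-Mac-1, 9.27, 9.34 and 10.01 in KG-1a, and at 0 and 1 µM it was 9.76 and 11.66 in MV-4-11. The 3 arrays of MOLM-14 lay close together, while both treated arrays were above the untreated one in each other line with 5 µM. H2BC12 rose by 1.03 ± 0.26 (SE, adjusted p = 0.0932), with 2.05 in Mono-Mac-1, 1.90 in MV-4-11 and 0.07 in MOLM-14. The dimmer H2BC12 probe read 0.72 ± 0.20 (SE, adjusted p = 0.113) and did not pass.

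At 0, 1 and 5 µM H2BC21, in the HIST2 cluster, gave 6.52, 6.73 and 7.09 in TF-1, 7.93, 7.94 and 8.10 in MOLM-14, 6.93, 7.35 and 7.62 in THP-1, 6.27, 6.71 and 7.23 in Mono-Mac-1, 6.45, 6.44 and 6.70 in KG-1a, and at 0 and 1 µM it was 6.61 and 7.46 in MV-4-11. It was higher in 6 of 6 lines by 0.45 ± 0.11 (SE, adjusted p = 0.0898), with 0.12 in KG-1a and 0.09 in MOLM-14 the smallest changes. H2BC5, in the HIST1 cluster, moved farther but less evenly, and gave 7.60, 7.99 and 8.34 in TF-1, 8.73, 8.36 and 8.33 in MOLM-14, 6.68, 7.16 and 7.47 in THP-1, 7.22, 9.29 and 9.81 in Mono-Mac-1, 7.20, 7.31 and 7.69 in KG-1a, and at 0 and 1 µM it was 6.32 and 8.13 in MV-4-11. Its change of 0.87 ± 0.32 (SE, adjusted p = 0.198) spanned -0.38 in MOLM-14 to 2.33 in Mono-Mac-1. A second probe on the same H2BC5 transcript read 0.68 ± 0.18 (SE, adjusted p = 0.104), and a probe on another RefSeq transcript of the gene was below the filter.

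H2BC9 was the histone gene that fell. Its signal at 0, 1 and 5 µM was 7.86, 7.01 and 6.88 in TF-1, 7.37, 6.70 and 6.69 in MOLM-14, 7.86, 7.40 and 7.14 in THP-1, 6.18, 6.05 and 6.31 in Mono-Mac-1, 6.93, 6.66 and 6.81 in KG-1a, and at 0 and 1 µM it was 8.07 and 6.51 in MV-4-11. H2BC9 changed by -0.65 ± 0.12 (SE, adjusted p = 0.0501), with -1.56 in MV-4-11, -0.91 in TF-1, -0.68 in MOLM-14 and -0.59 in THP-1. The gene was near background in Mono-Mac-1 before treatment, and its change there was 0.00. The H2B family as a whole had a median of 0.01, with 8 of 13 genes above 0. H2BC12, H2BC21 and H2BC5 stood beside 9 H2B genes with changes between -0.08 and 0.21. All 9 had a mean raw signal under 100, where the offset understates a log2 change.

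**Figure D2:**
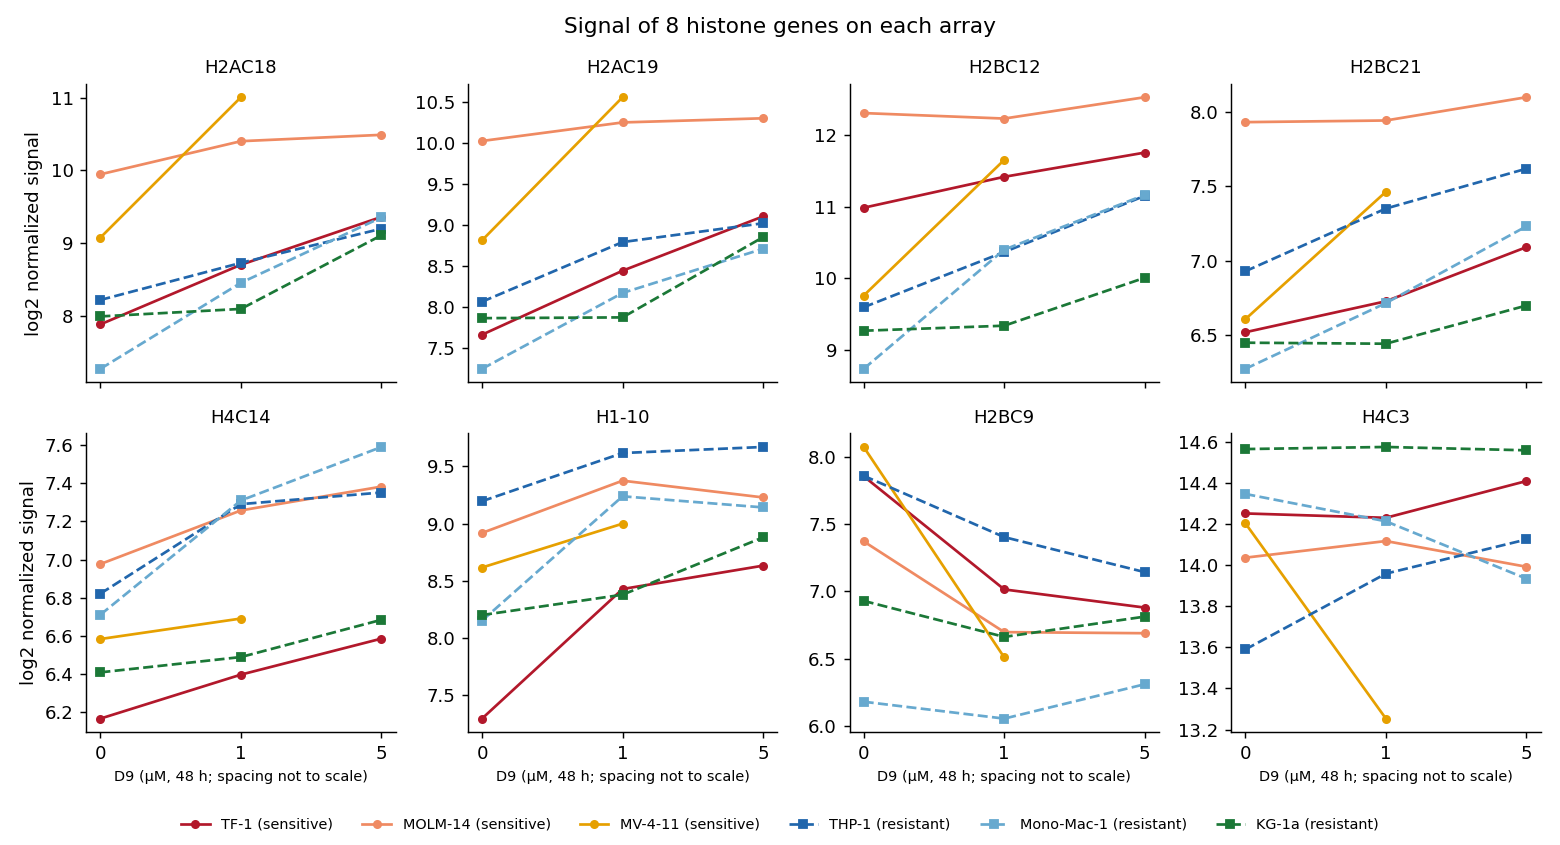
Log2 normalized signal (vertical axis, a scale of its own in each panel) of 8 histone genes on every array against D9 dose, 1 line per cell line; solid lines are sensitive and dashed lines resistant. H2AC18 is above its untreated level on all 11 treated arrays, H2BC9 falls most in MV-4-11 and H4C3 is 0.95 lower in MV-4-11 at 1 µM, the line with its largest change.

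Core histone promoters often hold a TATA box, CCAAT boxes and, in H2A and H2B genes, an octamer bound by OCT1. The 250 bases before the start site are shown for the called genes with the largest changes, from RefSeq on GRCh38.p14, with matches on either strand in capitals. The letters searched were TATAAA for the TATA box, ATGCAAAT for the octamer and CCAAT for the remaining box, and none of these motifs contains another. H2AC18 lies at chr1:149842751-149843000 on the minus strand, H2BC12 at chr6:27146859-27147108 on the minus strand and H2BC9 at chr6:26251364-26251613 on the plus strand. The H2AC19 sequence is that of H2AC18 with its start site placed 1 base earlier.
H2AC18: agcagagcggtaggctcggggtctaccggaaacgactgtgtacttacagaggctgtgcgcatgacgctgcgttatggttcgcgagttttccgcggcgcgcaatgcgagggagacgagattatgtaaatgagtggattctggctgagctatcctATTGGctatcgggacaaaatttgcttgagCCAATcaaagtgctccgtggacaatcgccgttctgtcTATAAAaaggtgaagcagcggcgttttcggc
H2BC12: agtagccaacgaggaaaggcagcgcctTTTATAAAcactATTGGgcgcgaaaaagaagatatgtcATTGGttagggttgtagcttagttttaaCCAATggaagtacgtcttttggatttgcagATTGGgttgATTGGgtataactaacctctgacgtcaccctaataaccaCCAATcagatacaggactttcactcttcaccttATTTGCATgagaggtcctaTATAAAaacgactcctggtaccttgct
H2BC9: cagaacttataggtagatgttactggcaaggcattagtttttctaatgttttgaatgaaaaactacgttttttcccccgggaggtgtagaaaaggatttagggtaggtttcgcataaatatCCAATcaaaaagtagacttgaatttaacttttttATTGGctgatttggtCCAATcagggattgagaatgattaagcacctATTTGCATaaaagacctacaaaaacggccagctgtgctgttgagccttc
In these windows the TATA box began 31 bases before the start of H2AC18 and 27 bases before that of H2BC12, and the H2BC9 window held none. The octamer began 46 bases before the start of H2BC12 and 49 before that of H2BC9, so it was present both in a gene that rose and in one that fell. H2BC12 held 6 CCAAT boxes, and a pair of overlapping TATA matches farther upstream.

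Of 67 histone genes with a promoter in the table, 43 held the TATA box (64.2%), 56 held a CCAAT box (83.6%) and 26 held the octamer (38.8%). Over all 35116 promoter windows of that length, the shares were 10.7%, 32.0% and 1.63%. The octamer was found in 14 of 18 H2B genes and 11 of 16 H2A genes, and in 1 of 11 H3 genes and 0 of 13 H4 genes. A CCAAT box was present in all H2A, H2B and H3 windows and in 3 of 13 H4 windows.

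Among the H3 genes 0 of 9 were called, although 8 lay above 0 with a median of 0.13. H3C10 had the largest change and at 0, 1 and 5 µM gave 6.24, 6.71 and 7.37 in TF-1, 6.16, 6.13 and 6.37 in MOLM-14, 6.13, 6.10 and 6.30 in THP-1, 6.14, 6.57 and 6.67 in Mono-Mac-1, 6.43, 6.58 and 6.90 in KG-1a, and at 0 and 1 µM it was 6.31 and 6.20 in MV-4-11. Only TF-1 moved by more than 0.5 (0.80), and the change over 6 lines was 0.27 ± 0.12 (SE, adjusted p = 0.27). H3C2 read 0.19 ± 0.09 (SE, adjusted p = 0.292) and H3C13, the brightest H3 probe in untreated cells, read 0.13 ± 0.11 (SE, adjusted p = 0.583) with 0.66 in Mono-Mac-1 and -0.09 to 0.22 elsewhere. The signal of H3C2 ran from 5.99 to 6.87 over the 17 arrays and that of H3C13 from 6.51 to 7.89. The probe annotated to both H3C6 and H3C11 was not called either.

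The H4 genes had 1 call. At 0, 1 and 5 µM H4C14, in the HIST2 cluster, gave 6.17, 6.40 and 6.59 in TF-1, 6.98, 7.26 and 7.38 in MOLM-14, 6.82, 7.29 and 7.35 in THP-1, 6.71, 7.31 and 7.59 in Mono-Mac-1, 6.41, 6.49 and 6.68 in KG-1a, and at 0 and 1 µM it was 6.58 and 6.69 in MV-4-11. It rose by 0.36 ± 0.08 (SE, adjusted p = 0.0715) in 6 of 6 lines, with 0.11 in MV-4-11 the smallest and 0.74 in Mono-Mac-1 the largest change. H4C12, in the HIST1 cluster, gave 7.51, 7.49 and 8.08 in TF-1, 7.72, 7.77 and 7.77 in MOLM-14, 6.77, 7.24 and 7.16 in THP-1, 7.48, 8.38 and 8.74 in Mono-Mac-1, 7.36, 7.51 and 8.09 in KG-1a, and at 0 and 1 µM it was 8.27 and 7.79 in MV-4-11. Its change was 0.30 ± 0.12 (SE, adjusted p = 0.245), with the 3 resistant lines at 0.42 to 1.08 and MV-4-11 at -0.49.

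H4C3 had a mean raw signal of 18606, near the top of the scale, where the highest signal of any probe was 26384 to 34388 per array and differences can be compressed. Whether its values were compressed was not tested. Its log2 signal was 14.25, 14.23 and 14.41 in TF-1, 14.04, 14.12 and 13.99 in MOLM-14, 13.59, 13.96 and 14.12 in THP-1, 14.35, 14.21 and 13.93 in Mono-Mac-1, 14.56, 14.57 and 14.56 in KG-1a, and at 0 and 1 µM it was 14.20 and 13.25 in MV-4-11. The change was -0.11 ± 0.15 (SE, adjusted p = 0.76), with -0.95 in MV-4-11 and 0.45 in THP-1, and without MV-4-11 it was 0.052. H4C15, close to H4C14 in the HIST2 cluster, had a similar mean raw signal (108.6, against 102.9 for H4C14). It did not share the rise of H4C14, was higher in 1 of 6 lines and read -0.10. The 8 H4 genes had a median of 0.09 with 4 above 0.

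H1-10 was the linker histone that rose. Its signal at 0, 1 and 5 µM was 7.30, 8.43 and 8.63 in TF-1, 8.92, 9.37 and 9.23 in MOLM-14, 9.20, 9.62 and 9.67 in THP-1, 8.15, 9.24 and 9.14 in Mono-Mac-1, 8.20, 8.38 and 8.88 in KG-1a, and at 0 and 1 µM it was 8.62 and 9.0 in MV-4-11. H1-10 was higher on all 11 treated arrays and rose by 0.65 ± 0.14 (SE, adjusted p = 0.0587), with 1.23 in TF-1, 1.04 in Mono-Mac-1 and 0.38 to 0.45 in the other 4 lines. H1-2, a clustered linker histone gene, moved farther in most lines and the other way in MOLM-14. Its values were 9.48, 10.62 and 11.18 in TF-1, 10.14, 9.74 and 9.49 in MOLM-14, 7.74, 8.66 and 8.68 in THP-1, 7.48, 9.35 and 9.55 in Mono-Mac-1, 7.79, 8.20 and 8.79 in KG-1a, and at 0 and 1 µM it was 8.21 and 8.94 in MV-4-11. The change of 0.87 ± 0.25 (SE, adjusted p = 0.12) held 1.98 in Mono-Mac-1, 1.42 in TF-1 and -0.52 in MOLM-14, and did not pass. H1-1, H1-5 and H1-7, the last a testis gene, were near background with changes of -0.03 to 0.02.

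By position, 4 of the 6 genes that rose lay in the HIST2 cluster, and of these H2AC18 and H2AC19 are not independent readings. HIST2 had 9 tested genes with 7 above 0 and a median of 0.37. Its 4 H2A genes, which include both of those copies, had a median of 0.68. The HIST1 cluster was divided where neighboring histone genes lie more than 0.5 Mb apart. Block 1, with 19 tested genes, had a median of 0.10 and held H2BC9. Block 2, with 3 tested genes, had a median of 0.23 and held H2BC12. Block 3, with 10 tested genes, had a median of 0.02 and no call. The single HIST3 gene tested, H2AC25, read 0.09, and the HIST4 gene H4C16 was below the filter. The clusters also differed in signal. The median over their tested genes of the mean raw signal was 108.6 in HIST2, 78.1 in block 1, 82.7 in block 2 and 61.9 in block 3. No test compared the clusters or separated position from signal.

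**Figure D3:**
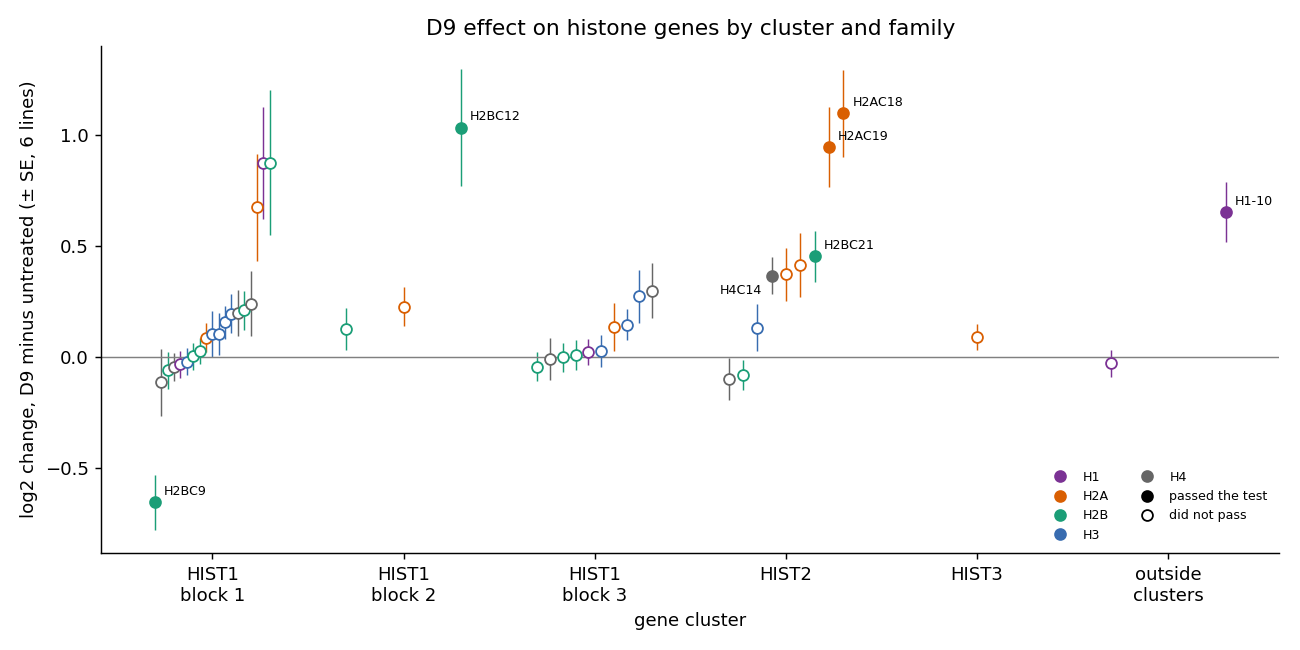
Log2 change over 6 lines (points, with the standard error of the limma fit as bars) for each of 44 histone genes, by gene cluster and, in color, by family; filled points passed at an adjusted p under 0.10. Of the 6 genes that rose, 4 are in HIST2, and of these H2AC18 and H2AC19 are not independent readings. H2BC9 is the filled point below 0.

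Some histone genes face each other across a shared promoter region. Among member genes 13 such pairs had start sites within 1000 bases on opposite strands, and both partners were tested in 6. In 3 of the 6 the partners had changes of the same sign. H2BC21 and H2AC20 read 0.45 and 0.41, whereas H3C7 read 0.10 beside H2BC9 at -0.65 and H2BC4 read -0.06 beside H2AC6 at 0.67.

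The 6 lines differed widely in how many histone transcripts moved. At least 2-fold gains over untreated cells were seen for 5 of 50 probes in TF-1 (0.324% of all probes), 0 in MOLM-14 (0.264%), 7 in MV-4-11 (0.877%), 1 in THP-1 (0.571%), 11 in Mono-Mac-1 (0.807%) and 0 in KG-1a (0.102%). H2BC9 in MV-4-11 was the 1 probe lower by that much, in a line where 1.38% of all probes were. The median over 44 genes was 0.35 in Mono-Mac-1, 0.15 in TF-1, 0.11 in KG-1a, 0.06 in MV-4-11, 0.04 in MOLM-14 and -0.01 in THP-1. Without Mono-Mac-1 the median over the other lines was 0.06. Each of these line values rests on 1 untreated array, so they are descriptions with no test.

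Whether the histone response differed between classes was asked with the difference of the sensitive and the resistant effect. By limma 0 of 50 histone probes passed, as did 0% of all probes, and 4 histone probes had an unadjusted p under 0.05 (8%, against 2.66% of all probes). All 4 had the lower change in sensitive lines: H2BC9 differed by -0.79 ± 0.25 (SE, adjusted p = 0.999), H4C12 by -0.70 ± 0.25 (SE, adjusted p = 0.999), H3C4 by -0.39 ± 0.15 (SE, adjusted p = 0.999) and H3C12 by -0.37 ± 0.14 (SE, adjusted p = 0.999). The resistant lines include Mono-Mac-1, where H2BC9 was near background before treatment and had little room to fall. By the methods' t-test 0 histone probes had an unadjusted p under 0.05. The H2AC18 change was 1.20 ± 0.28 (SE) in sensitive and 1.00 ± 0.28 (SE) in resistant lines, n = 3 lines each, and differed by 0.20 ± 0.39 (SE, adjusted p = 0.999).

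Within either class alone no histone probe passed. At the adjusted threshold 0.0317% of all probes were called in sensitive and 0.155% in resistant lines. In sensitive lines 11 of 50 histone probes (22%) had an unadjusted p under 0.05, against 12.4% of all probes, and H2BC9 had the smallest adjusted p of 0.136 with a change of -1.05. In resistant lines 13 of 50 (26%) had an unadjusted p under 0.05, all higher, against 11.8% of all probes in either direction. The median over 44 genes was 0.06 in sensitive and 0.19 in resistant lines.

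The step from 1 to 5 µM could be followed in 5 lines. With the higher dose 3 of 50 histone probes rose further and 0 fell, against 0.282% of all probes called higher. H2AC18 gained 0.63 ± 0.11 (SE, adjusted p = 0.0478), and the brighter and dimmer H2BC12 probes gained 0.57 ± 0.08 (SE, adjusted p = 0.0341) and 0.51 ± 0.08 (SE, adjusted p = 0.0341). For H2AC18 the change at 1 µM and at 5 µM was 0.82 and 1.48 in TF-1, 0.46 and 0.54 in MOLM-14, 0.51 and 0.98 in THP-1, 1.19 and 2.09 in Mono-Mac-1, and 0.10 and 1.12 in KG-1a. KG-1a thus showed little of the change at 1 µM, and MOLM-14 showed nearly all of its small change there. H1-10 gained 0.10 ± 0.09 (SE, adjusted p = 0.739) and H2BC9 0.00 ± 0.08 (SE, adjusted p = 0.999). Of the 44 genes 37 had a step above 0, with a median of 0.14 against 0.00 over all probes. The count of histone probes called was 0 when KG-1a was left out, 1 for TF-1, 2 for MOLM-14, 2 for Mono-Mac-1 and 8 for THP-1, and 0 under median scaling or a smaller offset. Over all probes the step had 155 calls in the main fit. That total was 3 without KG-1a, 12 without TF-1, 8 without MOLM-14, 91 without Mono-Mac-1 and 308 without THP-1. Median scaling left 24 and the smaller offset 8.

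Before treatment 0 of 50 histone probes differed between sensitive and resistant lines, as did 0% of all probes, by limma, and 3 (6%) had an unadjusted p under 0.05, against 2.11% of all probes. These were H2BC12, higher by 1.82 ± 0.67 (SE, adjusted p = 1) in sensitive lines, H1-2, by 1.61 ± 0.50 (SE, adjusted p = 1), and H4C11, by 0.37 ± 0.13 (SE, adjusted p = 1). Untreated MOLM-14 had the highest signal of the 6 lines for H2BC12 (12.31), H1-2 (10.14), H2AC18 (9.95), H2AC19 (10.03) and H2BC21 (7.93), and untreated Mono-Mac-1 the lowest (8.74, 7.48, 7.27, 7.24 and 6.27).

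Genes that transcribe and process histone mRNA were read beside the histones. Of 29 tested genes, 12 lay above 0 with a median of -0.03, and 3 were called, 2 higher and 1 lower, beside 2.78% and 2.81% of all probes: ZNF473, a zinc finger protein of the histone 3' end processing machinery, rose by 0.27 (adjusted p = 0.0854), UPF1, which acts in decay of histone mRNA, rose by 0.23 (adjusted p = 0.0987), and CPSF3, the nuclease that cuts histone mRNA, fell by 0.31 (adjusted p = 0.0457), each in 6 of 6 lines by limma. SLBP, which binds the stem-loop, read -0.31 (adjusted p = 0.280) on its brighter probe, with -0.92 in Mono-Mac-1 and -0.66 in MV-4-11. Its other 4 lines lay between -0.44 and 0.05.

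Of 23 histone chaperones, which carry histones to and from DNA, 7 lay above 0 and SUPT16H, a subunit of FACT, fell by 0.43 (adjusted p = 0.0531), the 1 call of that list. Among 11 replacement histones outside the clusters 0 were called by limma. H3-3B, one of the genes for histone H3.3, read 0.39 (adjusted p = 0.177), H3-3A 0.09 (adjusted p = 0.663), and the centromere histone CENPA -0.59 (adjusted p = 0.119).

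S phase genes were also measured, since core histone genes are transcribed with them. On their brightest probes all 28 tested genes lay below 0 with a median of -0.44, and 1, the primase subunit PRIM1, was called at -0.81 (adjusted p = 0.0700). A second PRIM1 probe was also called by limma, at -0.76 (adjusted p = 0.0783). A dimmer RFC3 probe was called at -0.59 (adjusted p = 0.0728), while the brightest RFC3 probe read -0.40 (adjusted p = 0.296). Counted on brightest probes, single calls among 23 and 28 genes are near the 2.81% of all probes called lower. The line medians were 0.02 in TF-1, -0.06 in MOLM-14, -1.44 in MV-4-11, -0.24 in THP-1, -0.89 in Mono-Mac-1 and -0.11 in KG-1a. MV-4-11 and Mono-Mac-1, the lines with the largest drop of S phase genes, were also those with the largest gains of H2AC18 and H2BC12, while TF-1 gained 1.15 in H2AC18 with an S phase median of 0.02. The part of S phase in the histone changes was not tested, and in bulk RNA fewer cells of a kind and less RNA per cell cannot be told apart.

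**Figure D4:**
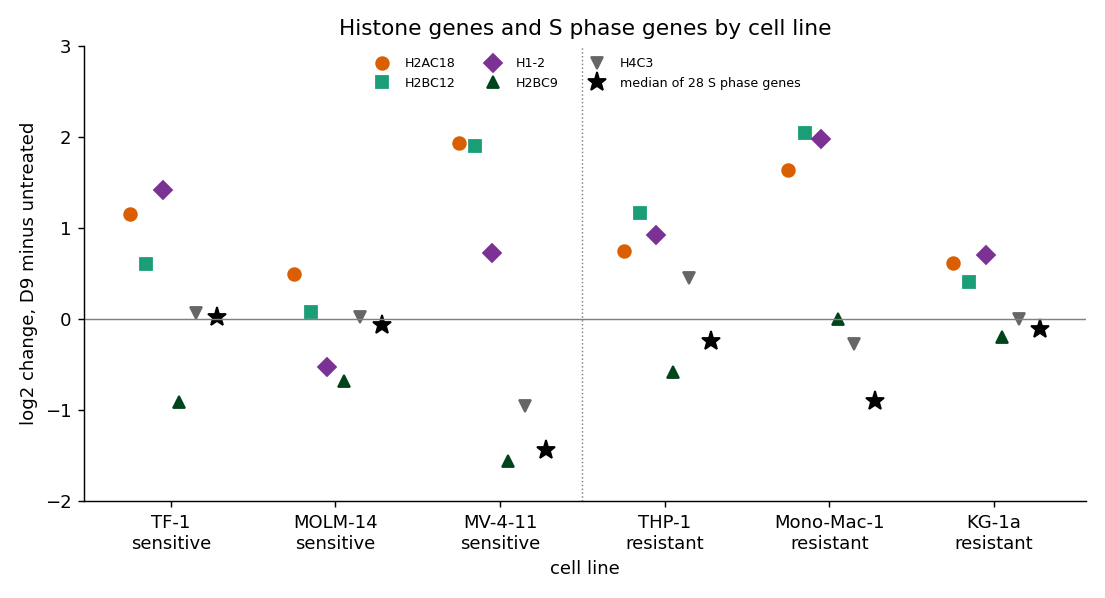
Log2 change, D9 minus untreated, of 5 histone genes (colored points) and the median of 28 S phase genes (black stars) in each line, sensitive lines left of the dotted line. Mono-Mac-1 and MV-4-11 combine the lowest S phase medians, -0.89 and -1.44, with the highest H2AC18 and H2BC12 points.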

How the data were processed

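Raw bead intensity values on a linear scale, deposited for 17 arrays and summarized by the authors in GenomeStudio, were the source. A second table of log2 values, made by the authors in GeneSpring, served as an alternative. Its direction, base and centring were settled by rebuilding it, within 0.00061, as log2 signal minus the array's 75th percentile and the probe's median. In limma 3.58.1 (R 4.3.3) normexp with an offset of 50 removed background from the raw values, log2 was taken, and the log2 values were quantile-normalized. Probes above the 40th percentile of mean level (6.16) were kept, 28394 of 47323. The platform annotation gave 30113 probes a single symbol, 17202 none and 8 more than 1. No detection p-values, chip or date were used.

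For each line the mean of treated arrays minus its untreated array was fitted with class in limma (lmFit, eBayes), with 4 residual degrees of freedom, and adjusted by Benjamini-Hochberg over all tested probes. The doses were compared in 5 lines and untreated arrays 3 against 3. The pairing comes from the cell line in the labels: untreated and 1 µM arrays of a line deviated together (r of 0.853 to 0.942). With 1 culture per line and condition, p-values measure the spread between lines.

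Members and gene lists were chosen with earlier results of these data known. Named were every called member, the 2 genes per family with the largest change, the brightest gene per family in untreated cells, and H1-10, each gene on its brightest probe. Of the companion lists, up to 3 called genes were named, and SLBP, H3-3A, H3-3B and CENPA were added after their values were seen. Alternatives were the authors' values, no background correction, median scaling, offset 16, the 60th percentile or no filter, the methods' t-test, arrays unpaired or all entered within lines, 1 dose at a time, leaving out each line and a threshold of 0.05. Promoters came from RefSeq (GRCh38.p14), the first listed window of each gene.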

Additional observations from a re-analysis of the deposited data

How the results depend on the processing

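Over 6 lines 8 histone probes were called. The count was 14 with an offset of 16, 1 at a threshold of 0.05, 1 with the 1 µM arrays alone, 0 without the replicate block that pairs arrays by line, 14 with every array counted within its line, and by the methods' t-test 12 (11 higher, 1 lower) at an unadjusted p under 0.05 and 0 after Benjamini-Hochberg adjustment at 0.05. Leaving out 1 line gave 0 to 9. Calls over all probes moved too, from 1588 in the main fit to 2158 with an offset of 16. They were 486 at a threshold of 0.05, 514 with the 1 µM arrays alone, 0 unpaired and 4547 with every array. Leaving out 1 line gave 108 to 1373 of them. The sensitive lines had 0 calls, but 1 (H2BC9, lower) with the authors' log2 values, 1 with no background correction, 1 with an offset of 16 and 5 with every array. Over all probes the sensitive lines had 9 calls, and 93, 57, 136 and 1169 under these settings in turn. The resistant lines had 0 calls, but 7 with every array, against 44 and 1658 calls over all probes. The setting with every array counts the 1 and 5 µM arrays of a line as separate replicates, which they are not. Its p-values thus do not measure the spread between lines, and its extra calls add no support. The dose step had 3 calls, against 5 with the authors' values, 5 with no background correction, 0 with median scaling, 0 with an offset of 16, 5 with no filter, and 0 to 8 with 1 line left out. Over all probes the step had 155 calls, against 122, 129, 24, 8 and 196 under these settings in turn. With 1 line left out that total ran from 3 to 308. The cause of these shifts was not tested. The class difference and the untreated comparison kept 0 calls under every alternative run for them.

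Of 271 values of 16 named probes under the alternatives, 199 kept direction and call, 55 lost the call, 15 gained it and 2 turned sign. Only 8 of the 16 probes were called in the main fit, and all 55 losses were theirs, since an uncalled probe had no call to lose. Each of these 8 lost its call in 4 (the brighter H2AC18 probe) to 9 (H2BC12 and H4C14) of 17 alternatives. The 2 values that turned sign were both H4C3, at 0.048 with the 5 µM arrays alone and -0.21 to 0.052 with 1 line left out, the highest without MV-4-11. The median change of histone genes kept its sign under every alternative, at 0.06 to 0.22.

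A log2 change understates a difference between low signals because of the offset. Probes of near-identical histone genes can bind each other's transcripts, and probe sequences were not analysed here. Each line had 1 untreated array, and precision is limited by the number of arrays.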

Other observations

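Among dim histone genes that were not called, the largest single-line changes were those of H4C2, at 1.10 in Mono-Mac-1 against -0.08 to 0.18 in the other 5 lines, and H2AC21, at 0.93 in Mono-Mac-1 against -0.04 to 0.51 elsewhere. Dim means here a mean raw signal under 100, and both genes were chosen after their values were seen. In Mono-Mac-1 the change of H2AC21 was 0.35 at 1 µM and 1.52 at 5 µM.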
